A study of Cicer arietinum with 8 samples.

Results

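Between 24 h and 48 h in salt, the response of chickpea shoots relative to unsalted shoots changed past the threshold at 1 probe, CA0562, whose ratio of salt-treated over control shoots was 3.47-fold higher at 48 h than at 24 h. That call was lost under 10 of the 21 alternative settings that could test it. The comparison covered 383 of the 756 probes on the arrays, namely those with a value on at least 2 of the 3 arrays at each time, and for each of them the difference of the log2 ratios, 48 h minus 24 h, was tested. Further probes differed between the times at an unadjusted p under 0.05 (limma) without passing. Among them were U034, U098 and U025 with larger ratios at 48 h and CA0705, U473, CA0855, CA0856 and CA0853 with lower ones. In U098 the arrays of the times overlapped.

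Seedlings of the genotype ICC 3996 (Cicer arietinum) grew in rock wool over aerated Hoagland's nutrient medium. At 18 days the medium of the treated plants was exchanged for one with 150 mM NaCl, and that of the control plants for fresh medium without the salt. Shoots, which here are stems with leaves, were taken 48 h and 24 h after the exchange, from 5 treated and 5 control plants at each time, so each time had its own control and no plant was followed. The RNA was hybridised in pairs to 2-colour arrays of spotted cDNA probes, with treated RNA in the Cy5 dye on arrays 1 and 2 of a time and in Cy3 on array 3. The 3 arrays of a time are called biological replicates by the submitters. How the pools of plants were made for them is not said, and p-values measure the spread between arrays. For fitted ratios and their differences, the spread of a probe came from up to 21 arrays of several tissues and stresses. It was not that of the 6 shoot arrays alone.

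Salt in the root medium acts on a shoot in phases. The solution outside the roots first makes water harder to take up, which closes stomata and slows leaf growth, and this osmotic phase begins at once. Sodium and chloride then travel up with the water and build up in leaves, where plants answer by excluding the ions, storing them in vacuoles and making compatible solutes. Chickpea is known as a salt-sensitive legume. The files name each probe by a code alone, and 0 of the 756 codes are in the RefSeq table, so no probe below has a gene name, a function or a sequence. Probes are therefore grouped by when and in which direction they moved.

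Signal over background set what could be compared. To count as above background, a probe needed 50% or more of its spots to exceed the local background by 2 of its SDs. Between 370 and 496 probes per channel were above background on the 6 shoot arrays, and 340 to 438 probes per array had a ratio from spots unflagged in both channels. Of the 373 probes left out, 36 had enough arrays at 48 h only, 11 at 24 h only and 326 at neither time, and 272 had no value on any shoot array. With 3 arrays a time, precision is limited by their number. In bulk shoots, more cells of a type and more RNA per cell cannot be told apart.

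One array stood apart from the others of its group. Over the 285 probes measured on all 6 arrays, the 48 h arrays correlated with r = 0.83 (arrays 1 and 2), 0.67 (arrays 1 and 3) and 0.68 (arrays 2 and 3). Among the 24 h arrays, arrays 1 and 2 correlated with r = 0.83, but array 3, with its dyes swapped, had r = 0.17 with array 1 and -0.04 with array 2. Array 3 of 24 h was closer to array 3 of 48 h, which shares its dye orientation, with r = 0.69. The fitted model held a dye term, which itself passed for 48 of 500 probes. Values without array 3 of 24 h are given beside some of the named probes.

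CA0562 was the probe past the threshold, 0.261% of the 383 tested. Its log2 ratios at 48 h were 2.54, 1.79 and 1.21 on arrays 1, 2 and 3, and at 24 h they were -0.08 and 0.05 on arrays 2 and 3, with array 1 giving no unflagged pair of spots. All 48 h arrays were above both 24 h arrays, by more than a full log2 unit. The fitted ratio was 1.78 at 48 h (adjusted p = 0.000233 against control) and -0.02 at 24 h (adjusted p = 0.967), and the difference was 1.79 (SE 0.30, limma, adjusted p = 0.0257). In the swapped arrays alone the difference was 1.16. CA0562 could not be tested without array 3 or array 2 of 24 h, since 1 array would remain at that time.

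The brightness of CA0562 was compared in each channel. Salt-treated RNA gave signal means of 10754.5, 6387 and 3167 on the 48 h arrays, against 1910, 2192 and 1752 for the control RNA of the same arrays. At 24 h the treated channel read 2849 and 1204 on arrays 2 and 3, close to the control channel at 2722 and 930. The local backgrounds of these spots lay between 387 and 990. The treated channel of CA0562 was above background on all 3 arrays of both times and the control channel on all 3 at 48 h, but at 24 h the control channel was above background on array 2 only. The ratios rest on 6, 4 and 6 unflagged spots at 48 h, against 5 spots on array 2 and 1 spot on array 3 at 24 h, so the difference was not tested with a minimum of 3 spots. After scaling between arrays the treated level of CA0562 was 1.74 log2 units higher at 48 h than at 24 h (SE 0.37), and the control level changed by -0.04 (SE 0.37).

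CA0562 lost its call under 10 of the 21 alternative settings that could test it. Among these were median centring in place of loess (difference 1.72, adjusted p = 0.177), no background correction (1.44, adjusted p = 0.116), the 6 shoot arrays fitted alone (1.78, adjusted p = 0.168) and leaving out array 2 of 48 h (1.89, adjusted p = 0.0513). The smallest differences came from the settings that let in flagged spots. They were 1.09 with flagged spots kept (limma, adjusted p = 0.239) and 1.28 with spots dropped only where both channels were flagged (limma, adjusted p = 0.136). The part that the few unflagged spots at 24 h had in this was not tested. Over all 21 the difference ran from 1.09 to 2.04 and the adjusted p from 0.00549 to 0.579. Leaving out dim spots, or array 1 of 24 h where CA0562 had no value, left its difference at 1.79. Keeping the call under those settings therefore says little about it. In the authors' deposited table CA0562 had log2 values of 1.69 at 48 h and -0.18 at 24 h.

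In the other tissues and stresses of the series, CA0562 had fitted log2 ratios of stressed over control of 1.93 in roots after 48 h of salt (SE 0.23, 2 arrays), -0.10 in leaves (SE 0.19) and -0.07 in flowers (SE 0.23) under drought, and 0.17 in leaves (SE 0.25) and 0.39 in flowers (SE 0.19) in the cold. Both 48 h salt tissues thus had a ratio near 1.8 to 1.9, and the drought and cold values lay within 0.39 of 0. By correlation with CA0562 over its 5 shoot arrays, the most similar of 285 probes were U453 (r = 0.99), U420 (0.97), U008 (0.94), CA0878 (0.94) and U113 (0.94). These correlations rest on 5 arrays shared by all probes and are a description only.

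Across the 383 probes the differences were centred near 0, with a median of -0.03, 181 above 0 and 202 below it. Their median size, 0.28, was about that of their median standard error, also 0.28. The differences ran from -1.41 to 2.12 on the log2 scale, and 12 probes (3.13%) were at least 2-fold higher and 9 (2.35%) at least 2-fold lower at 48 h. An unadjusted p under 0.05 was reached by 75 probes (19.6%), 29 with a higher ratio at 48 h (7.57%) and 46 with a lower one (12%). With median centring these were 40 higher and 31 lower, so the balance between directions was another under that setting. Without array 3 of 24 h they were 35 and 33. Without array 1 of 24 h, whose images were quantified on another day than those of the other 5 arrays, they were 14 and 36. They were 9 and 22 without array 2 of 24 h, 8 and 25 without array 1 of 48 h, 28 and 30 without array 2 of 48 h, and 19 and 28 without array 3 of 48 h. CA0562 had no value on array 1 of 24 h, so its difference stayed at 1.79 without that array. Its kept call there (limma, adjusted p = 0.0201) is therefore no test of the day of quantification. After CA0562 the next adjusted p was 0.119, shared by 8 probes.

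**Figure D1:**
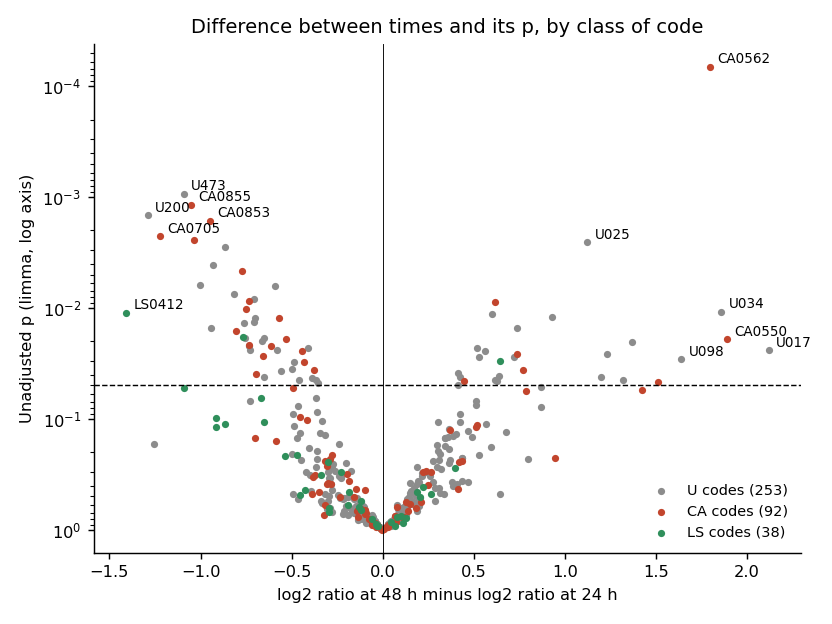
Each point is 1 of the 383 probes tested, with the difference of log2 ratios (48 h minus 24 h) across and its unadjusted limma p on a log axis that runs upwards to smaller values; colours give the prefix of the code and the dashed line is the 0.05 level. CA0562 lies alone at the top, and the other probes above the line spread to both sides of 0.

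Of the 75 probes, 68 had the larger fitted ratio in size at 48 h and 7 at 24 h, beside 250 of all 383 tested (65.3%) with the larger size at 48 h. Among the 29 with a higher ratio, 21 were called above the control at 48 h and 8 at neither time, and among the 46 with a lower ratio, 39 were called below the control at 48 h and 7 at neither time. Over all 419 probes tested at 48 h, 13.4% were called above the control and 17.9% below it. A call at the later time and a difference from the earlier one share the 48 h arrays, so these counts are a description.

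The probes with the largest positive differences after CA0562, among those with a value on all 6 arrays, were U034, U098, U256, U059, U102, U025, U453, CA0878, CA0185, U362, U003 and U007. Differences of these 12 ran from 1.86 to 0.64 with adjusted p from 0.119 to 0.242, so none passed. All 12 were called above the control at 48 h, beside 13.4% of the 419 probes tested at that time. Of these 12, 1 (U098) was called above it at 24 h as well, beside 2.54% of 394. In 6 of the 12 every 48 h array was above every 24 h array, against 20 of the 285 probes with 6 values (7.02%). Since these probes were selected for their difference, which shares the 48 h arrays with the calls, these counts describe them only.

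U034 had log2 ratios of 4.13, 2.16 and 2.86 on the 48 h arrays and of 1.22, 0.46 and 1.90 on the 24 h arrays. The groups did not overlap, but array 3 of 24 h came close to array 2 of 48 h. The difference was 1.86 (SE 0.64, unadjusted p = 0.0108, adjusted p = 0.197). In brightness the control channel of U034 read 1689, 1770 and 1191 at 48 h, against 6241, 2345 and 2254 at 24 h, so the lower control signal at 48 h moved with the ratio. Its treated channel read 25560, 6722 and 6207 at 48 h, against 12835, 3074 and 5840 at 24 h.

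U098 had the largest fitted ratio at 48 h of the probes named here, 3.58, beside 1.94 at 24 h. Its arrays gave 3.36, 3.03 and 4.30 at 48 h, against 1.75, 0.68 and 3.33 at 24 h. The groups overlapped, as array 3 of 24 h was above array 2 of 48 h. The difference was 1.64 (SE 0.68, adjusted p = 0.214), and it was 2.41 without array 3 of 24 h. U256 had a similar order of arrays, with 2.58, 1.41 and 2.29 at 48 h and 0.30, 0.62 and 1.41 at 24 h, where the highest 24 h array touched the lowest 48 h array.

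U025 had the smallest p of the 12. Its log2 ratios were 1.66, 0.82 and 1.40 at 48 h, against 0.13, -0.23 and 0.61 at 24 h, with no overlap. The difference was 1.12 (SE 0.30, unadjusted p = 0.00257, adjusted p = 0.119). As in CA0562, the treated channel accounted for most of it in size, with a change of 1.01 (SE 0.26) beside -0.11 (SE 0.26) in the control channel. U453 had 1.70, 1.16 and 0.96 at 48 h, against 0.41, 0.21 and 0.41 at 24 h, again without overlap (difference 0.93, SE 0.32).

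CA0185 and U362 had narrow spreads. CA0185 gave 1.15, 0.82 and 1.28 at 48 h, against 0.49, 0.14 and 0.39 at 24 h. U362 gave 1.14, 0.97 and 1.19 at 48 h, against 0.34, 0.10 and 0.64 at 24 h. In both the groups were separate, with differences of 0.74 (SE 0.30) and 0.74 (SE 0.27). Without array 3 of 24 h these differences were 0.86 and 0.97. In U362 the change lay more in the control channel, at -0.55 (SE 0.22), than in the treated one, at 0.19 (SE 0.22).

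U059, U102 and U003 rested on arrays that disagreed within a time. U059 gave 1.38, 0.51 and 1.31 at 48 h, against -1.22, -0.65 and 1.40 at 24 h. Its array 3 read the same at both times, to within 0.08 log2 units, and without array 3 of 24 h the difference of 1.23 (SE 0.50) became 1.96. U102 gave 1.75, -0.21 and 1.19 at 48 h, against -0.92, -1.02 and 1.09 at 24 h, with a difference of 0.10 between the swapped arrays. U003 gave 0.76, -0.47 and 1.35 at 48 h, against -0.43, -0.70 and 0.62 at 24 h. Array 3 was the highest 24 h array in 10 of the 12 probes with positive differences and in 7 of the 12 with negative ones described below, beside 42.5% of the 285 probes with 6 values.

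CA0878 and U007 completed these 12. CA0878 gave 1.81, 1.11 and 0.48 at 48 h, against 0.73, 0.31 and 0.05 at 24 h, and its order of arrays was the same at both times. U007 gave 1.64, 0.52 and 1.41 at 48 h, against 0.33, 0.40 and 0.92 at 24 h. Both overlapped between times.

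**Figure D2:**
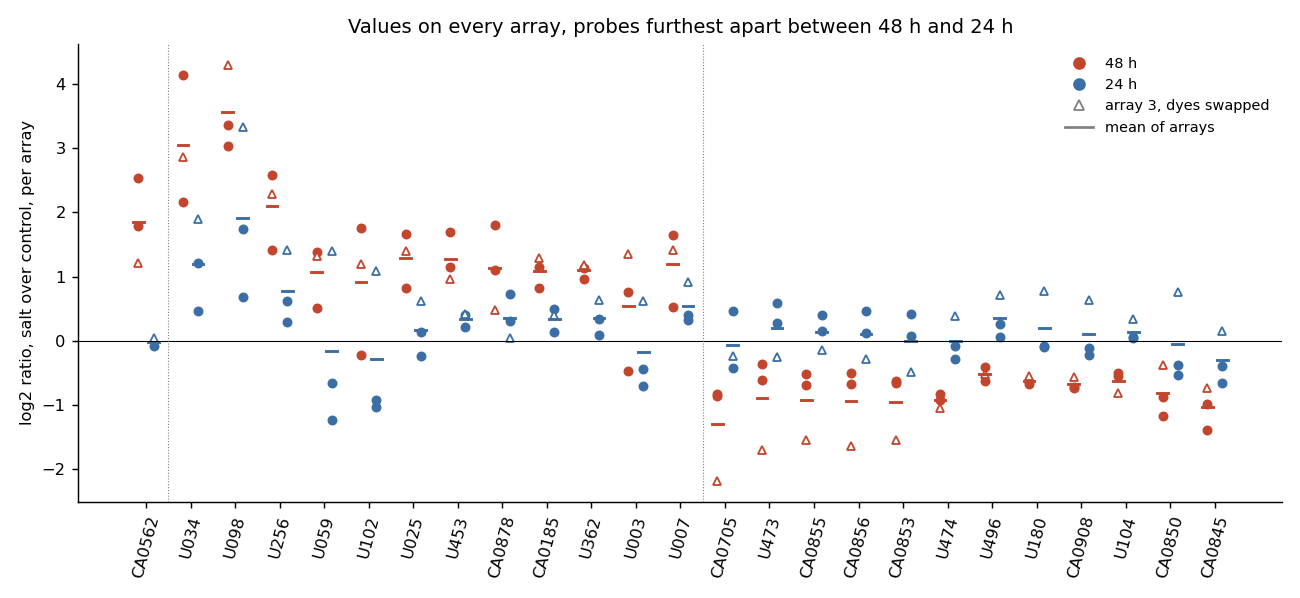
Log2 ratio of salt-treated over control shoots on each array for CA0562, the 12 probes with the largest positive and the 12 with the largest negative differences, 48 h in red to the left and 24 h in blue to the right; triangles are the arrays with swapped dyes and short bars the mean of the arrays. The 48 h values of CA0562 lie between 1.21 and 2.54 and its 24 h values beside 0, while in the negative block the 48 h values lie below 0 and the 24 h values on both sides of it.

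The largest negative differences among probes measured on all 6 arrays were those of CA0705, U473, CA0855, CA0856, CA0853, U474, U496, U180, CA0908, U104, CA0850 and CA0845. They ran from -1.22 to -0.73 with adjusted p from 0.119 to 0.200, and none passed. All 12 were called below the control at 48 h, beside 17.9% of the 419 probes tested at that time, and 0 at 24 h, beside 2.54% of 394. In 11 of the 12 every 48 h array was below every 24 h array, against 25 of 285 probes (8.77%), and in all 12 both dye orientations gave a negative difference, where over all 285 probes the orientations gave the same sign at 153 (53.7%). These probes too were selected for their difference and its p, which favours calls at 48 h, separate groups and equal signs, so these counts describe them only. The spread of these probes was narrower than that of the positive ones, with standard errors of 0.23 to 0.33 beside 0.27 to 0.68.

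CA0705 had log2 ratios of -0.86, -0.83 and -2.18 at 48 h, against -0.42, 0.46 and -0.24 at 24 h. All 48 h arrays were lower, and the swapped array was the lowest. The difference was -1.22 (SE 0.33, unadjusted p = 0.00226, adjusted p = 0.119). CA0705 was a bright probe, with control signals of 35608, 32996 and 17245 at 48 h and 38098, 30240 and 12950 at 24 h. Its treated signals were 23106, 21563 and 3097 at 48 h, against 31675, 47930 and 7322 at 24 h.

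U473, CA0855, CA0856 and CA0853 moved almost as 1 probe. U473 gave -0.35, -0.61 and -1.69 at 48 h, against 0.28, 0.59 and -0.25 at 24 h. CA0855 gave -0.52, -0.69 and -1.54 at 48 h, against 0.15, 0.40 and -0.14 at 24 h. CA0856 gave -0.51, -0.67 and -1.63 at 48 h, against 0.13, 0.46 and -0.29 at 24 h. All of these were below the control on every 48 h array and on both sides of it at 24 h, with array 3 the lowest at each time.

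CA0853 gave -0.66, -0.62 and -1.55 at 48 h, against 0.08, 0.42 and -0.49 at 24 h. The differences of the 4 probes were -1.09 (SE 0.26) for U473, -1.05 (SE 0.25) for CA0855, -1.04 (SE 0.28) for CA0856 and -0.95 (SE 0.24) for CA0853, each with adjusted p = 0.119. Over the 18 arrays on which all have a value, the pairs among them correlated with r between 0.93 and 0.98, and on the shoot arrays no pair was more than 0.35 log2 units apart. That likeness was looked for after the values had been seen. Whether these spots carry the same transcript is not given by the files, so they are not counted as separate evidence.

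U474 and U496 had no overlap and small spreads at 48 h. U474 gave -0.91, -0.83 and -1.04 at 48 h, against -0.28, -0.08 and 0.38 at 24 h (difference -0.93, SE 0.27, adjusted p = 0.156). U496 gave -0.40, -0.63 and -0.52 at 48 h, against 0.26, 0.07 and 0.72 at 24 h (difference -0.87, SE 0.24, adjusted p = 0.119). U496 was thus below the control on every array at 48 h and above it on every array at 24 h, with the 48 h ratio called (adjusted p = 0.0446) and the 24 h ratio not (adjusted p = 0.160).

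U180 and CA0908 agreed closely between arrays at 48 h and less so at 24 h. U180 gave -0.67, -0.64 and -0.55 at 48 h, against -0.10, -0.08 and 0.77 at 24 h. CA0908 gave -0.72, -0.74 and -0.56 at 48 h, against -0.22, -0.12 and 0.63 at 24 h. In both, array 3 was the highest of the 24 h arrays, and without it the differences of -0.82 and -0.77 became -0.61 and -0.59.

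U104 gave -0.55, -0.50 and -0.81 at 48 h, against 0.05, 0.04 and 0.34 at 24 h. CA0845 gave -1.38, -0.98 and -0.74 at 48 h, against -0.66, -0.40 and 0.16 at 24 h. Neither overlapped between times. CA0850 did, with -1.17, -0.88 and -0.37 at 48 h, against -0.54, -0.38 and 0.75 at 24 h. Without array 3 of 24 h its difference of -0.75 became -0.51. Leaving out that array made the difference larger in size at 4 of the 12 negative probes and at 11 of the 12 positive ones.

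Some probes with large differences had fewer than 6 values. The largest positive difference of all was that of U017, 2.12 (SE 0.82, adjusted p = 0.204), from 2.37, -0.53 and 0.46 at 48 h and -2.16 and -0.60 at 24 h, and CA0550 followed the same course with 1.87, -0.46 and 0.06 at 48 h and -2.20 and -0.77 at 24 h. Arrays 2 of both times lay close together in these probes, and neither was called at either time. U200 had a difference of -1.29 (SE 0.31, adjusted p = 0.119) from arrays 1 and 2 alone, at -0.29 and -0.55 at 48 h and 0.80 and 0.93 at 24 h. These 3 were singled out after their values had been seen.

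The times were also compared through their calls against the control. At 48 h, 56 of 419 tested probes were higher in salt-treated shoots (13.4%) and 75 lower (17.9%), and at 24 h 10 of 394 were higher (2.54%) and 10 lower (2.54%). Over the 383 probes with both times, 8 were called higher at both and 8 lower at both, and 0 were called in opposite directions. Another 47 were called higher and 65 lower at 48 h without a call at 24 h, while 3 were called at 24 h alone. Leaving out array 3 or array 1 of 24 h left 0 calls at 24 h, and leaving out array 1 or array 3 of 48 h left 59 or 51 calls at 48 h, so membership of these classes depends on single arrays.

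A call at 48 h and none at 24 h was not the same as a difference between times. Of the 47 probes called higher at 48 h alone, 20 (42.6%) had an unadjusted p under 0.05 for the difference, and of the 65 called lower, 38 (58.5%) had. Over all 383 probes tested it was 75 (19.6%). The 47 had a median fitted log2 ratio of 0.87 at 48 h and 0.38 at 24 h, and 41 of them were already above 0 at 24 h. The 65 had medians of -0.77 at 48 h and -0.22 at 24 h, and 14 of them were above 0 at 24 h. Among the 252 probes called at neither time, 15 (5.95%) had such a p. These classes are drawn from the same ratios as the difference, which favours unequal shares, so the shares are a description only.

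**Figure D3:**
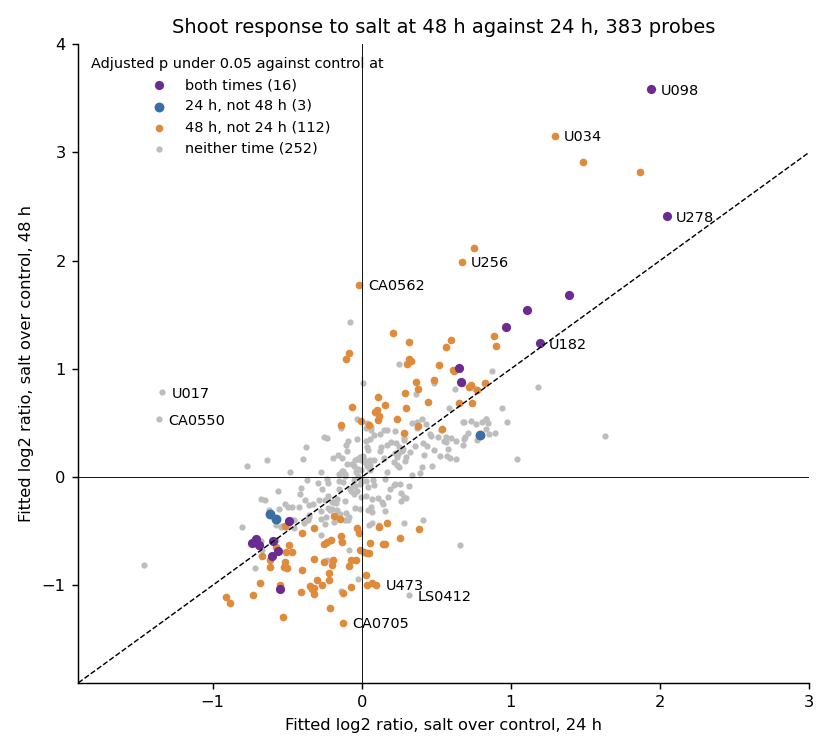
Fitted log2 ratio of salt-treated over control shoots at 48 h (vertical) against 24 h (horizontal) for the 383 probes, coloured by the times at which each passed an adjusted p of 0.05 against control; the dashed line marks equal ratios. U034 and U098 lie far above the line, CA0562 lies at 1.78 on the vertical axis and beside 0 on the horizontal one, and the probes called lower at 48 h alone form a band below the line.

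The 8 probes called higher at both times were U280, CA0877, U278, U020, U096, U246, U182 and U098. All 8 differences were positive, with a median of 0.36, and none passed. U278 gave 2.50, 1.83 and 2.75 at 48 h, against 1.69 and 2.40 on arrays 1 and 3 at 24 h, and U182 gave 1.74, 0.93 and 1.15 at 48 h, against 1.31, 1.34 and 1.05 at 24 h. In these probes the ratio at 24 h was already near that of 48 h, with differences of 0.36 (SE 0.29) and 0.04 (SE 0.29). U280 gave 1.34, 1.51 and 1.66 at 48 h, against 1.12, 0.29 and 1.79 at 24 h. CA0877, the 1 CA code among the 16, gave 1.48, 0.62 and 1.79 at 48 h, against 0.51, 0.05 and 2.07 at 24 h. In these last 2 probes array 3 of 24 h was the highest of all 6 arrays, and without it their differences of 0.44 and 0.42 became 0.77 and 0.90.

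U020, U096 and U246 were the others called higher at both times. U020 gave 1.84, 0.96 and 0.52 at 48 h, against 1.02, 0.72 and 0.51 at 24 h. U096 gave 1.94 and 0.94 on arrays 1 and 2 at 48 h, against 0.97, 1.27 and 1.69 at 24 h. U246 gave 1.21 and 0.55 on arrays 1 and 3 at 48 h, against 0.91, 0.68 and 0.64 at 24 h. The times overlapped in each, and the differences were 0.36, 0.29 and 0.21, the last of which was 0.36 without array 3 of 24 h.

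The 8 probes called lower at both times were U219, U076, U042, U412, U082, U491, U334 and U119. Their fitted ratios ran from -1.04 to -0.41 at 48 h and from -0.74 to -0.49 at 24 h, so none reached a 2-fold reduction at 24 h. Their differences had a median of 0.03, beside -0.03 for all probes tested. U219 gave -0.99, -0.35 and -0.48 at 48 h, against -0.84, -0.72 and -0.69 at 24 h, and U076 gave -0.98, -0.32 and -0.52 at 48 h, against -0.72, -0.63 and -0.87 at 24 h. U119 was the exception among them, with -1.33 and -0.74 on arrays 1 and 3 at 48 h, against -0.76, -0.54 and -0.51 at 24 h. Its 48 h arrays were the lower ones except that array 3 lay beside array 1 of 24 h, and its difference was -0.49 (SE 0.19, unadjusted p = 0.0307, adjusted p = 0.214).

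Only U411, U403 and U205 were called at 24 h and not at 48 h. U411 gave 0.88, -0.01 and 0.22 at 48 h, against 0.80, 0.31 and 1.19 at 24 h. U403 gave -0.39, 0.22 and -0.68 at 48 h, against -0.19, -0.43 and -1.05 at 24 h. U205 gave -1.08, -0.39 and 0.03 at 48 h, against -0.94, -0.73 and -0.34 at 24 h. The times overlapped in all 3, and the differences were -0.40 (SE 0.29), 0.28 (SE 0.23) and 0.19 (SE 0.21), with adjusted p from 0.562 to 0.760. Without array 3 of 24 h they were -0.22, 0.12 and 0.17. A response seen at 24 h and gone by 48 h was thus not detected at any probe tested.

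Fitted ratios lay on opposite sides of 0 at the 2 times for 89 of the 383 probes, and 20 of those were called at 48 h and had an unadjusted p under 0.05 for the difference. In 6 of the 20 the ratio was above 0 at 48 h, as in CA0562, and in 14 below it, as in U473. None was called at 24 h, where the smallest adjusted p was 0.160, so the sign at 24 h is not established for any of them. Examples beyond those already given are U266, with -0.26, -0.33 and -0.65 at 48 h, against 0.38, -0.01 and 0.18 at 24 h, and CA0756, with 0.75, 0.60 and 0.18 at 48 h, against -0.13, 0.13 and -0.32 at 24 h. Neither overlapped between times, with differences of -0.59 (SE 0.18, adjusted p = 0.186) and 0.62 (SE 0.20, adjusted p = 0.197).

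The remaining members of that group with higher ratios at 48 h included U318, at 1.06, 0.73 and -0.05, against 0.25, 0.07 and -0.16 at 24 h. On the lower side were U317, at -0.64, -0.63 and -0.89 at 48 h, against -0.30, 0.01 and 0.33 at 24 h, and U346, at -0.65, -0.77 and -0.27 at 48 h, against -0.30, -0.34 and 0.68 at 24 h. U317 did not overlap between times, whereas U318 and U346 did. U062 lacked an array 3 value at 48 h, and U314 lacked it at both times, so U314 was measured in 1 dye orientation only. Their differences were -0.71 (SE 0.23) for U062 and -0.66 (SE 0.24) for U314.

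The response as a whole was compared array by array. The SD of log2 ratios over the 285 probes averaged 0.755 ± 0.169 at 48 h and 0.642 ± 0.055 at 24 h (SD, n = 3 each, two-sided exact permutation test, p = 0.4, where 0.1 is the smallest that 3 against 3 can give). The median size of the ratio averaged 0.439 ± 0.067 at 48 h and 0.371 ± 0.055 at 24 h (exact permutation test, p = 0.3). Array 2 of 48 h had the smallest SD of all 6, at 0.567, and array 1 of 48 h the largest, at 0.896. A stronger overall response at 48 h was thus not detectable over arrays.

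In the fitted values, which average the arrays, 250 of the 383 probes (65.3%) had the larger ratio in size at 48 h, and the median size was 0.41 at 48 h and 0.27 at 24 h. Array 3 of 24 h, which stood apart from the others of its time, enters that average, and its part in the smaller size at 24 h was not tested. Ratios at both times had the same sign at 294 probes (76.8%), and correlated across probes with r = 0.70 and Spearman's rho 0.69. Probes are not independent replicates. The times share no array and no control plants, but they share the probe spots, the normalisation, the dye layout, the dye term and the spread of the model. The part of these in the correlation was not tested.

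Each ratio holds a treated and a control level, and the levels were compared between times after scaling between arrays. No probe passed among 383 in either channel (limma, smallest adjusted p 0.560 in the treated and 0.640 in the control channel), so 0% were called in each direction. At an unadjusted p under 0.05, 20 probes (5.22%) were higher and 3 (0.783%) lower at 48 h in the treated channel, and 7 (1.83%) were higher and 4 (1.04%) lower in the control channel. Across the 75 probes with an unadjusted p under 0.05 for the ratio, the treated channel had the larger change at 39. These 75 were selected for the difference of the channels, so that split describes them only. Control shoots at 48 h were also a day older than those at 24 h, and age and time in salt cannot be told apart in the treated shoots.

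The channels of U473 differed in sign. Its treated level at 48 h minus that at 24 h was -0.62 (SE 0.30), and the same difference of its control level was 0.47 (SE 0.30). In CA0705 these were -0.83 (SE 0.38) and 0.39 (SE 0.38), and in U098 0.72 (SE 0.51) and -0.92 (SE 0.51). Among the 12 probes with the largest positive differences and the 12 with the largest negative ones, the channel differences had opposite signs in all 24, beside 185 of all 383 probes (48.3%), and the treated difference was the larger in 6 and in 7 of them. Selection for a large difference of treated minus control favours opposite signs, so these counts too are a description.

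**Figure D4:**
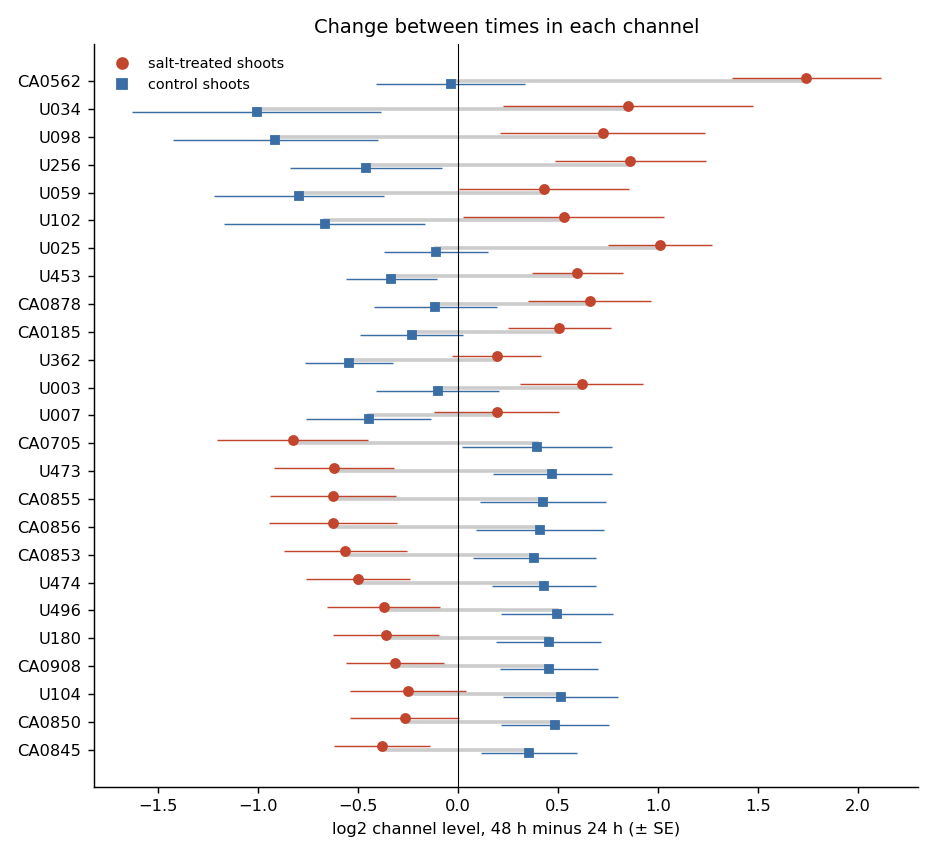
Change of the log2 channel level, 48 h minus 24 h, in salt-treated shoots (red circles) and control shoots (blue squares) for CA0562 and the 24 probes with the largest differences; whiskers are standard errors and the grey bar joins the channels of a probe. CA0562 and U025 had the larger difference in the treated channel, at 1.74 and 1.01, and in all 25 probes the channels lie on opposite sides of 0.

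Probes were also counted by the prefix of their code. Of 253 U probes tested, 21 were higher and 27 lower at an unadjusted p under 0.05 (19.0%), with a median difference of 0.04. Of 92 CA probes, 7 were higher and 17 lower (26.1%), with a median of -0.10. Of 38 LS probes, 1 was higher and 2 lower (7.89%), with a median of -0.16, and of the 41 LC probes 0 could be tested. These shares stand beside 19.6% over all 383, and no difference between prefixes was tested. What the prefixes stand for is not stated in the files.

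The LS probes at the extremes had few values. LS0412 had the largest negative difference of all, -1.41 (SE 0.41, adjusted p = 0.197), from -1.37 and -1.49 on arrays 1 and 2 at 48 h and 0.00 and -0.04 on the same arrays at 24 h. The groups were far apart, but only 1 dye orientation was measured, and the control channel held the change, at 1.25 (SE 0.37) beside -0.15 (SE 0.37) in the treated channel. LS0899 gave -0.86 and -1.87 at 48 h, against -0.40 and -0.15 at 24 h. On the positive side LS0716 gave 0.69, 0.49 and -0.14 at 48 h, against -0.07 and -0.24 at 24 h, and LS0160 gave 0.27 and 0.06 at 48 h, against -0.26 and -0.20 at 24 h. The times overlapped in LS0716 and not in LS0899 or LS0160, and none of these passed.

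Probes with no ratio can still differ in where they were above background. Of the 756 probes, 9 were above background at 48 h in all 3 treated channels and in 0 control channels. At 24 h 0 probes had that pattern. The 9 were CA0697, CA0810, LS0007, U081, U166, U245, U370, U434 and U507, and all were untested for the difference between times. LS0007 was above background in 3 treated channels at 48 h and in 0 of the other 9 shoot channels. U081 and U507 were above background in all 3 treated channels at 24 h too, but there in 1 control channel each. At 24 h CA0697 and U434 were above background in 2 treated and 0 control channels, and CA0810 and U370 in 1 and 0. U166 and U245 were so in 2 and 1. The contrast of 9 with 0 thus depends in part on asking for all 3 arrays. The opposite pattern was seen in U386, above background in the control channel of 3 arrays and in the treated channel of 0 at 48 h.

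The authors' deposited table gave the same sign of the difference between times at 300 of the 383 probes (78.3%) and at 67 of the 75 with an unadjusted p under 0.05. In the authors' deposited table the medians over all probes were -0.253 at 48 h and -0.250 at 24 h, so a shift common to both cancels in the difference. For U034 the authors' deposited table gave 2.81 at 48 h and 0.83 at 24 h, and for CA0705 it gave -0.58 and -0.20, a smaller step than the -1.22 fitted here. For CA0845 the deposited values were -1.10 at 48 h and -2.14 at 24 h, opposite in direction to the difference of -0.73 fitted here. That table was made from the same scans.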

How the data were processed

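Per the file headers, the deposited intensity of a spot is its mean pixel brightness, given with that of its local background, from ImaGene 5.5 with automatic segmentation and flagging. The deposited log2 table holds means over 3 replicates made by the authors, per the labels. Its centring and direction are not stated, and it served only for signs and single values. Group and time came from the labels, dye and channel role from the names of the channel files.

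Background was corrected with normexp (offset 50), arrays were normalised by global loess with controls and flagged spots at weight 0, spots flagged in either channel were dropped, ratios were turned to salt over control and the 6 spots of a probe averaged. limma 3.58.1 in R 4.3.3 fitted 1 coefficient for each condition and a dye term to 21 arrays. Salt roots at 24 h were left out because their 3 arrays are copies of 1 scan. The difference of the 48 h and 24 h coefficients was adjusted by Benjamini-Hochberg over all probes tested, and each ratio over the probes of its time, with a threshold of 0.05. Fitted ratios, differences and SEs come from this model, while values of single arrays hold no correction for dye. Channel levels used Aquantile scaling between the 6 shoot arrays, with array as random block. The code was tested on simulated data.

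Probes were named by a rule: past the threshold for the difference; the 12 largest differences in each direction with an unadjusted p under 0.05 and 6 values; past it at both times; past it at 24 h alone; of opposite sign at the times; and LS codes at the extremes. Members, lists and rule were chosen with earlier results of these data known.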

Additional observations from a re-analysis of the deposited data

Results flagged for a closer look

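CA0562 was singled out because its response to salt in shoots differed between times by a direct test, at a log2 difference of 1.79 (48 h minus 24 h, SE 0.30, 5 arrays, limma, adjusted p = 0.0257). It was higher on 3 of 3 arrays at 48 h than on either of 2 arrays at 24 h, and its adjusted p over the alternatives ran from 0.00549 to 0.579.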

How the results depend on the processing

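The difference between times was called at 1 probe, with 29 higher and 46 lower at an unadjusted p under 0.05, and 131 and 20 probes were called against control at 48 h and 24 h. The count of differences was 0 with no background correction, median centring, flagged spots kept, spots kept when flagged in a single channel, scaling between arrays, a minimum of 3 unflagged spots, a minimum of 3 arrays, the shoot arrays alone, all salt arrays alone, arrays 1 and 2 only and the methods' t-test, and 14 with array quality weights. Besides CA0562, these 14 included U098, U256, U059, U025, CA0185, U362, U003, CA0705, U473, CA0855, CA0856 and CA0853, which passed under no other setting. The weights of the 24 h arrays were 2.37, 2.10 and 0.37 for arrays 1, 2 and 3. The higher and lower probes at an unadjusted p were 8 and 20 with scaling, 17 and 27 without the dye term, 13 and 19 by the methods' t-test, 51 higher with array weights, 16 higher with the day of quantification as a block and with the salt arrays alone, and 20 lower with arrays 1 and 2 only. Calls at 24 h were 13 with median centring, 12 with loess by subgrid, 10 with scaling, 35 with 3 unflagged spots, 8 without the dye term, 121 with array weights and 0 with the shoot arrays alone, all salt arrays alone, the day as a block, and arrays 1 and 2 only. Calls at 48 h were 58 with scaling and 48 with arrays 1 and 2 only. Leaving out 1 array gave 0 to 1 differences, 8 to 35 higher, 22 to 36 lower, 51 to 133 calls at 48 h and 0 to 31 at 24 h. The settings with arrays 1 and 2 only and with all salt arrays alone were chosen after seeing the data, and the cause of these changes was not tested. With fewer arrays or probes, less is tested.

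With the replicate block over all arrays the counts were 1, 24, 40, 135 and 36 (difference, higher, lower, 48 h, 24 h), and with the replicate block over the shoot arrays alone 0, 23, 36, 93 and 0. Array numbers were not taken as pairs: same-numbered arrays deviated together with r = 0.30, 0.52 and 0.50 as measured and 0.03, 0.43 and 0.13 with the dye effect removed, and number 3 is also the swapped dye. Array 1 of 24 h was quantified on another day than the other 5, so values within that day are those without it. No named difference changed sign past the threshold, and no calls arose in either channel under any alternative run. Dim control channels limit what could be tested.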
